A study of Mus musculus with 16 samples.

Results

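A set of 9 genes that encode the enzymes and scaffolds of nick processing and ligation were examined for single-strand breaks in mouse embryonic stem cells: Xrcc1, Lig1, Lig3, Polb, Apex1, Apex2, Aptx, Aplf and Fen1. They are 9 of the 55413 genes annotated on chromosomes 1 to 19, X and Y, and were chosen by function. A peak was assigned to a gene when it shared at least 1 bp with the gene body extended by 5 kb on each side. The peaks came from SSB-seq, in which E. coli DNA polymerase I places digoxigenin-labelled nucleotides at nicks and the labelled DNA is immunoprecipitated (IP) and sequenced. The values therefore describe breaks in the DNA of these genes and say nothing of how much of their RNA or protein the cells made.

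The cells were of strain C57BL/6JRj and were kept in serum-free 2i medium with LIF. In the knockout cells a Tdg minigene had been excised with 4-OHT, given at 5 µM for 2 h. Thymine DNA glycosylase, the product of Tdg, cuts mispaired thymine and certain oxidised methylcytosines out of DNA. The labels give the 4-OHT step for every library and do not say whether the cells called wild type received it. The 4 groups were wild type (WT) with DMSO, WT with 5 nM talazoparib for 24 h, Tdg knockout (KO) with DMSO and KO with the same talazoparib treatment. The labels do not say how long DMSO was applied. Talazoparib inhibits poly(ADP-ribose) polymerases and holds them on DNA. Each group had 3 IP libraries and 1 input library, 16 in all, and the deposited peak list of a group has 1 value per peak for its pooled IP libraries. No difference between groups has a replicate check here, so values are set side by side without a test. The libraries of the WT and KO cells were on different flow cells, 2 for each genotype, so genotype and flow cell cannot be told apart. The peak lists show neither the loss of Tdg nor the identity of the cells, since both would need RNA or reads over the excised part.

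The products of these genes act in sequence on damaged bases and broken strands. The abasic-site endonuclease APEX1 cuts the backbone beside a lost base and its relative APEX2 processes blocked 3' ends. Polymerase beta (Polb) fills the gap and trims the sugar remnant, FEN1 removes the flap left by longer repair synthesis, and aprataxin (Aptx) frees 5' ends on which a ligation has failed. XRCC1 is the scaffold that carries DNA ligase III (Lig3) to nicks, APLF is a poly(ADP-ribose)-binding histone chaperone that serves end joining, and DNA ligase I (Lig1) seals the nicks of lagging-strand synthesis.

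The peaks of these genes lay mainly at transcript starts, many of them CpG-rich, and counts over all peaks are given below. Stretches from some repeatedly listed and some KO-listed sites are printed as examples. Sequences read 5' to 3' on the gene's strand, with CG dinucleotides in capitals. The first 5 lie upstream of a transcript start in the RefSeq promoter table of GRCm38.p6 (mm10), trimmed of every annotated exon. Apex1, Lig3, Lig1 and Aplf are genes whose start was in all 4 lists, although the Lig3 peak of KO cells with talazoparib began downstream of the printed stretch. The Aptx stretch was covered by the KO DMSO peak alone. The Xrcc1 and Polb sequences are exon-free stretches of start peaks that were listed in KO cells only, read from the same genome build.
Apex1, chr14:50924894-50924948, plus strand: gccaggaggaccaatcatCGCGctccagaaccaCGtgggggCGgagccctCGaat
Lig3, chr11:82781043-82781107, plus strand: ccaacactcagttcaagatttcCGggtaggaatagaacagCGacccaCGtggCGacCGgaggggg
Lig1, chr7:13278722-13278825, plus strand: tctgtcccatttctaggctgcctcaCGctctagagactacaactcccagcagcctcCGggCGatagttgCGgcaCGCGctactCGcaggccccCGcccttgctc
Aplf, chr6:87672238-87672369, minus strand: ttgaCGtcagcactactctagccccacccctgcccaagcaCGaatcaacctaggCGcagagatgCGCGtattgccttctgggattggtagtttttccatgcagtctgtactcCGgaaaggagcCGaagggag
Aptx, chr4:40703195-40703444, minus strand: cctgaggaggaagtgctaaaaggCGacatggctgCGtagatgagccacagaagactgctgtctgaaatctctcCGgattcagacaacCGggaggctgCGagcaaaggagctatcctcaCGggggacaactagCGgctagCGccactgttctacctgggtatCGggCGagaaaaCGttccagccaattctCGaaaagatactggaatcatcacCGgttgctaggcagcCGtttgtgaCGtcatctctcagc
Xrcc1, chr7:24547360-24547509, plus strand: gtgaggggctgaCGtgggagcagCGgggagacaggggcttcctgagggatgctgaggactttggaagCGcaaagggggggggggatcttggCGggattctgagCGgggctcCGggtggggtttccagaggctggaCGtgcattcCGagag
Polb, chr8:22653465-22653614, minus strand: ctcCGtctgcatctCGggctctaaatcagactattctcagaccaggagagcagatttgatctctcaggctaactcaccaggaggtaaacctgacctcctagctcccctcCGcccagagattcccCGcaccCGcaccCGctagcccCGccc
The printed stretches hold 5 CG dinucleotides for Apex1 in 55 bases, 5 for Lig3 in 65, 8 for Lig1 in 104 and 7 for Aplf in 132. Those of Aptx, Xrcc1 and Polb hold 15 in 250, 8 in 150 and 7 in 150 bases. Stretches that are not printed differed. Fen1, whose start was also in all 4 lists, had 5 in 250 bases upstream and 2 in 129 within its KO talazoparib peak. Within their KO talazoparib peaks, another Apex1 stretch had 2 in 150 and another Lig1 stretch 17 in 150. The promoter-table stretch of Xrcc1 had 0 in 30. The CpG content shown thus depends on the stretch chosen.

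The 4 lists held 28539 peaks for WT DMSO, 15526 for WT talazoparib, 35445 for KO DMSO and 23946 for KO talazoparib on these chromosomes. Behind them lay between 66.4 and 87.0 M IP tags and between 24.5 and 38.1 M input tags. IP tag density, used below, is the number of IP tags per base of a peak divided by the mean of the pooled IP over the genome, so that 1 is the genome mean. The 95% Poisson intervals cover counting error only, and the overlap of 2 of them is no test of equality. Peak borders were set separately in each list, so a density also depends on where a list drew them. The median IP density over all peaks was 2.00 with DMSO and 2.11 with talazoparib in WT cells, and 2.53 and 2.91 in KO cells. Unless stated otherwise, runs of 4 values keep this order of the lists.

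All 9 genes had a peak in the WT DMSO list and all 9 in the KO DMSO list. With talazoparib, 6 had one in WT and 7 in KO cells. Polb entered the WT DMSO count only through a peak past its 3' end. With the gene body alone or flanks of 2 kb, 8 genes had a peak in WT DMSO. Among all annotated genes the shares were 36.1% and 27.3% in the WT lists and 40.4% and 34.2% in the KO lists, each with DMSO first. Most annotated genes are short or non-coding, and a closer background is the 16636 protein-coding genes with bodies as long as those of the 9 genes, 2172 to 70350 bp. Of these, 61.0%, 48.6%, 67.0% and 59.0% had a peak in the same 4 lists. The 9 genes thus followed the background in having fewer peak-bearing members in the talazoparib list of each genotype, and they were above it in every list. No test of this was made. The lower share with talazoparib depended on the length of the lists: with the 15526 best-scoring peaks of each, the share of all genes was 27.8%, 27.3%, 28.4% and 28.5%, and 7, 6, 8 and 7 of the 9 genes had a peak. With a fold over input of at least 6, WT talazoparib was above WT DMSO, with 3 genes against 2 and 17.4% of all genes against 15.3%.

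The genes had 13, 10, 13 and 13 peaks in the 4 lists, 49 in all, with a median of 1 peak per gene in each. A peak was called a start peak when it lay within 500 bp of an annotated start of the gene's own protein-coding transcripts, and 28 of the 49 peaks were start peaks. Any such start counted, also one other than the principal start. Start peaks were centred downstream of the principal start by 826 and 868 bp at Xrcc1. At Lig1 the distance was 1337 to 1504 bp and at Apex2 1281 to 1540 bp. Start peaks were present at 7 genes with DMSO and 5 with talazoparib in WT, and at 9 and 7 in KO cells. With equal numbers of best-scoring peaks these counts were 6 and 5 in WT and 6 and 7 in KO cells, so the difference in KO cells turned round. Among 21886 protein-coding genes the shares with a start peak were 43.0%, 33.5%, 52.1% and 42.0%. Of the 11413 genes with a start peak in KO DMSO, 73.2% also had one in WT DMSO, 58.8% in WT talazoparib and 71.6% in KO talazoparib. The 9 genes, all of which had one in KO DMSO, were close to these shares with 7, 5 and 7. A start peak in all 4 lists was found at 5 of the 9, against 42.4% of the 11413.

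**Figure D1:**
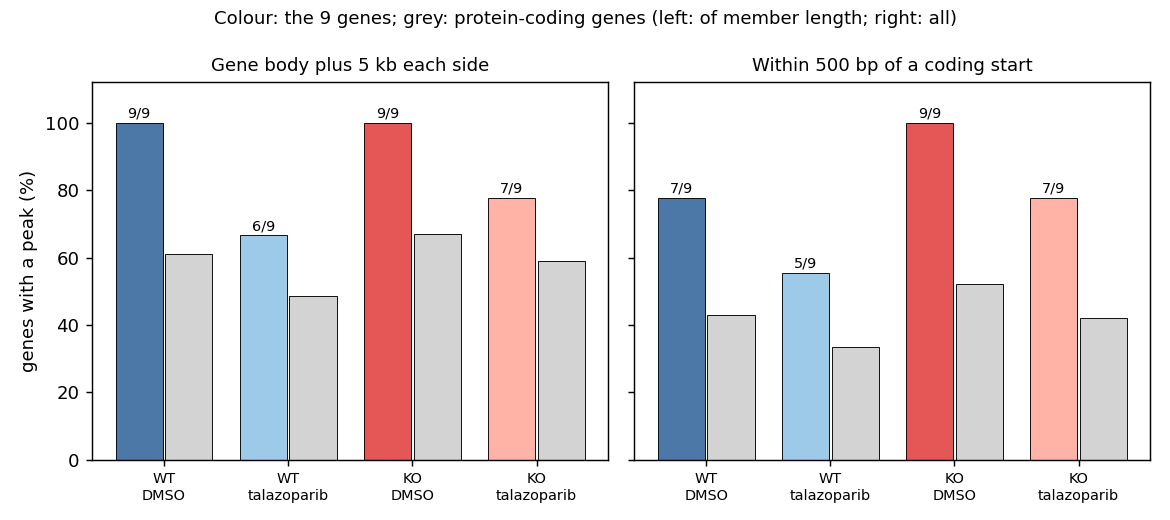
Percent of genes with a peak (vertical axis, %) in each of the 4 peak lists, for the 9 genes (coloured bars, counts above them) and for protein-coding genes (grey bars). The left panel uses the gene body plus 5 kb with genes of similar length as background, the right panel uses peaks within 500 bp of a coding start with all protein-coding genes; the coloured bars stand above the grey ones in every list and both drop with talazoparib.

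Joined across lists where they overlapped, the 49 peaks formed 24 regions. Of these, 6 were in all 4 lists and 13 in 1 list alone, and of the 60797 regions of the genome, 9.47% were in all 4 and 61.6% in 1. The 9 start regions, 1 per gene, included 5 found in all 4 lists, and of all 13086 regions at coding starts 33.1% were. Of the 15 regions away from the gene's own start, 12 were in a single list, as were 72.4% of the genome's 47711 regions away from coding starts. The single region of this kind in all 4 lists, beside Apex1, lay at the start of another gene.

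**Figure D2:**
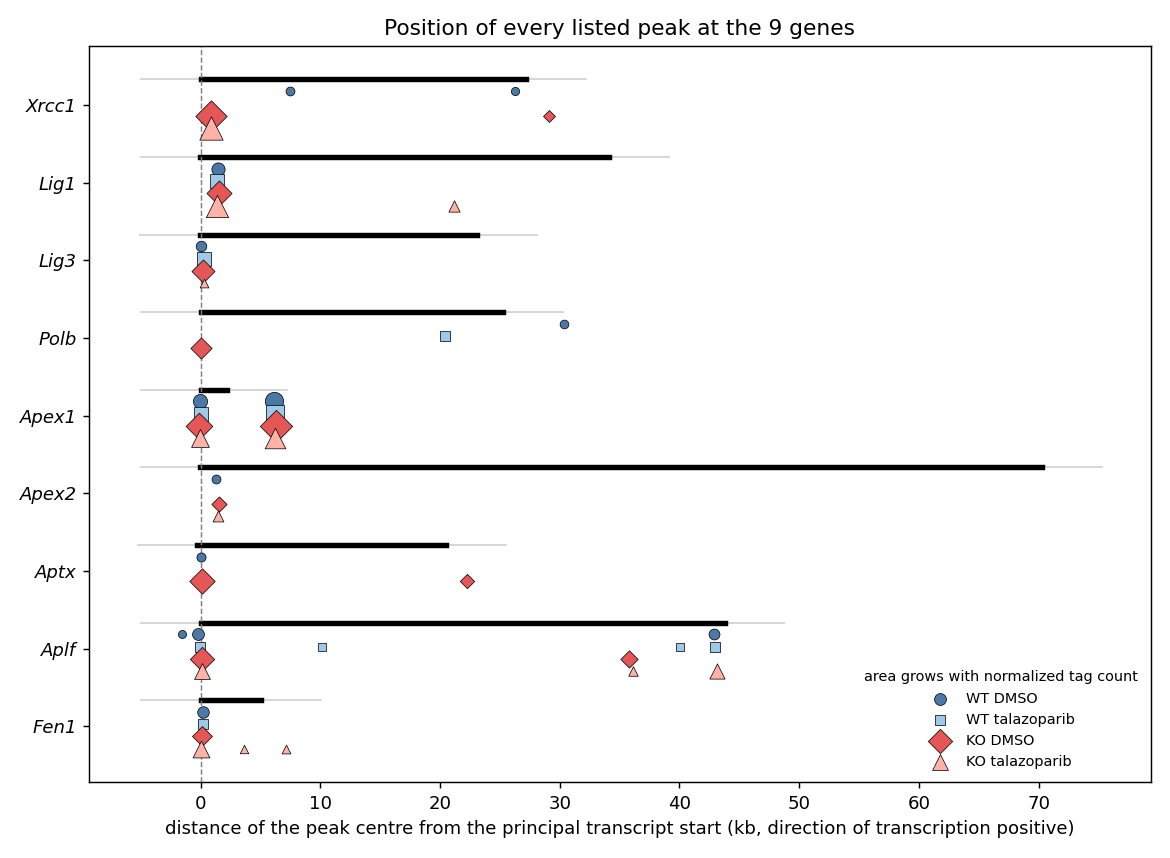
Position of each of the 49 peaks relative to the gene's principal transcript start (horizontal axis, kb, direction of transcription positive), with 1 row per gene. Black bars are gene bodies, thin grey lines the 5 kb added on each side, symbols mark the 4 conditions and their area grows with the normalized tag count; the symbols stack at the starts, while those within gene bodies are small and mostly stand alone.

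The abasic-site endonuclease genes differed in how many peaks they had. Apex1 (chr14:50924968-50927139, plus strand), the shortest of the 9 genes, had 2 peaks in every list. The peak over its start, joined to chr14:50923979-50925579, also covered the start of the divergent gene Osgep, so its breaks cannot be assigned to either gene. Its normalized tag count, in tags per 10000000 IP tags, was 13.4 with DMSO and 12.0 with talazoparib in WT cells, and 25.4 and 22.4 in KO cells. Its IP density was 3.07 (95% interval 2.54 to 3.68), 3.62 (2.95 to 4.40), 4.20 (3.60 to 4.87) and 5.09 (4.30 to 5.97) in the same order. Density was higher with talazoparib in both genotypes while the tag count was lower, and the talazoparib peaks were narrower, at 878 against 1156 bp in WT and 1166 against 1600 bp in KO cells. The talazoparib and DMSO intervals overlapped in each genotype.

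The other peak of the Apex1 window, chr14:50930425-50932023, lay at the start of Pip4p1, over the gene's neighbours Pip4p1 and Pnp. It was stronger than the peak at Apex1 itself in all 4 lists, with IP densities of 4.80 (4.17 to 5.50), 4.47 (3.89 to 5.12), 6.61 (5.83 to 7.45) and 7.02 (6.08 to 8.05). Its normalized tag counts were 23.8, 25.3, 38.0 and 30.5. It entered the count for Apex1 only through the 5 kb flank. Apex2 (chrX:150519519-150589868, minus strand), the longest of the genes, had a single region, chrX:150587985-150588813, within its first kilobases and inside the annotated body of the overlapping gene Pfkfb1. Its IP density was 2.16 (1.51 to 3.0) in WT DMSO, 2.85 (2.10 to 3.79) in KO DMSO and 2.45 (1.80 to 3.26) in KO talazoparib, and WT talazoparib had no peak there. These were among the lowest start densities of the set, and all 3 intervals overlapped.

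The gap-filling and flap-removal genes showed contrasting patterns. Polb (chr8:22628126-22653435, minus strand) had a start peak in KO DMSO alone, at chr8:22652905-22653953, with a normalized tag count of 15.2 and an IP density of 3.84 (3.14 to 4.65) from 105 IP tags. Both WT lists had their only Polb peak elsewhere. In WT DMSO a peak of 500 bp past the 3' end, chr8:22622790-22623290, shared 164 bp with the window, had a density of 2.04 (1.41 to 2.86) and lay nearest to the start of Dkk4. In WT talazoparib an intronic peak, chr8:22632802-22633302, had 2.40 (1.70 to 3.29), and repeats made up 73.0% of its bases. KO talazoparib had no peak at Polb. No Polb region was shared between lists.

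Fen1 (chr19:10199132-10204169, minus strand) had a start peak in every list, in the joined region chr19:10203613-10204529 that also holds the start of the divergent gene Tmem258. Its normalized tag count was 8.22 with DMSO and 5.79 with talazoparib in WT cells, and 13.2 and 19.8 in KO cells. Its IP density was 4.35 (3.40 to 5.49), 2.41 (1.78 to 3.19), 3.82 (3.07 to 4.68) and 6.92 (5.79 to 8.21). By density, talazoparib over DMSO was 0.553 in WT and 1.82 in KO cells, and in each genotype the 2 density intervals did not overlap. The peaks were 500 bp wide with DMSO and 637 bp with talazoparib in WT, and 916 and 757 bp in KO cells. The gap between the density intervals thus depends partly on the peak borders, and no intervals of the tag count were compared. Under DMSO the WT and KO intervals overlapped, whereas under talazoparib KO was 2.88 times WT. The input density moved the same way, from 0.903 with DMSO to 0.339 with talazoparib in WT and from 0.465 to 1.23 in KO cells. The authors' fold of IP over input therefore ran the other way, with 4.82 and 7.09 in WT and 8.22 and 5.61 in KO cells, and under talazoparib it was lower in KO than in WT. The part of the input in the Fen1 differences was not tested. The normalized tag count, which is not divided by peak width, was likewise lower with talazoparib in WT and higher in KO cells, but under DMSO it was higher in KO than in WT. KO talazoparib had 2 further peaks of 500 bp at Fen1, of which chr19:10200279-10200779 (density 1.87) touched an exon and chr19:10196784-10197284 (2.11) lay past the 3' end in Fads1. The nearest peak left out of the Fen1 window was in WT DMSO, 7.91 kb from the gene, with a normalized tag count of 4.60.

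**Figure D3:**
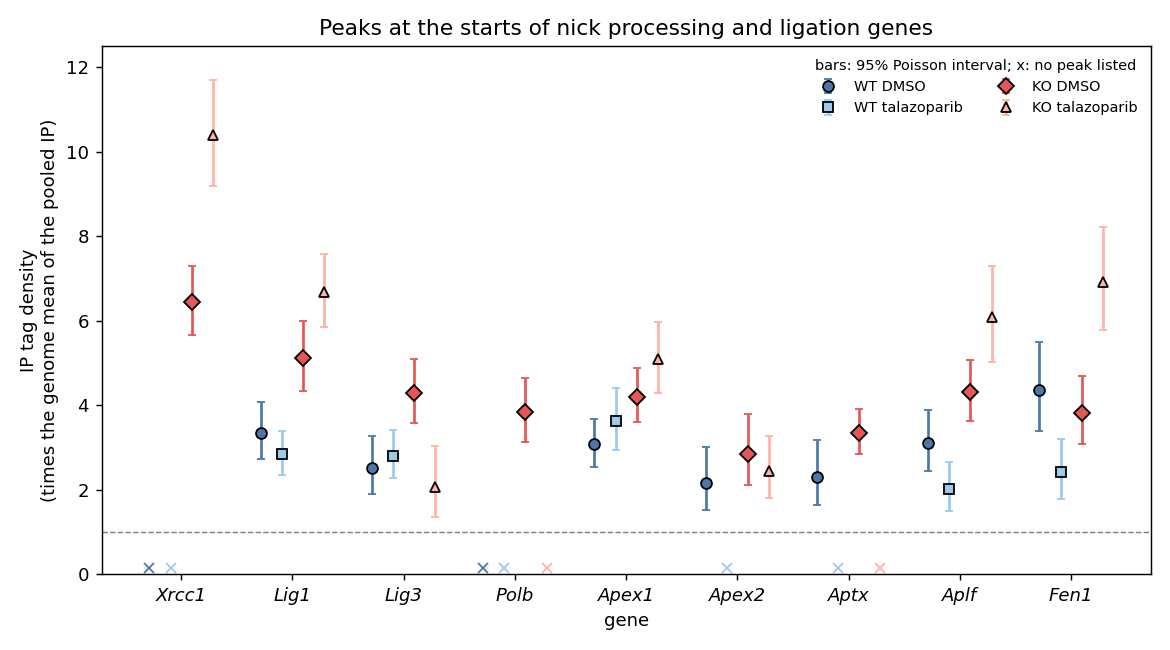
IP tag density (vertical axis, times the genome mean of the pooled IP) of the start peak of each of the 9 genes in the 4 lists, with 95% Poisson intervals from IP tags as bars. Crosses at the foot mark lists without a start peak and the dashed line is the genome mean; Xrcc1 has KO points only, Polb KO DMSO only, and at Fen1 the WT talazoparib point is the lowest and the KO talazoparib point the highest.

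Aptx (chr4:40682382-40703194, minus strand) had start peaks in the DMSO lists only. In WT DMSO the peak was 500 bp wide, with a normalized tag count of 4.37 and an IP density of 2.31 (1.64 to 3.18). In KO DMSO it was 1803 bp wide, the widest start peak of the 9 genes, with a tag count of 22.8 and a density of 3.35 (2.85 to 3.91). Density at Aptx thus differed less than the tag count, and the density intervals of the 2 lists overlapped. KO DMSO had one more peak past the 3' end, chr4:40680416-40680916, with a density of 3.14 (2.25 to 4.26). Neither talazoparib list had a peak in the Aptx window.

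Xrcc1 (chr7:24546289-24573440, plus strand), the scaffold gene, had the densest start peak of the 9 genes in each KO list. In KO DMSO the peak chr7:24546425-24547890 had a normalized tag count of 35.6 and an IP density of 6.43 (5.65 to 7.29) from 246 IP tags. In KO talazoparib the peak chr7:24546608-24547621 had 39.8 and 10.4 (9.19 to 11.7) from 264 tags. These densities exceeded those of 97.3% and 99.3% of the peaks in their lists. The input library was also denser there with talazoparib, at 2.31 times its genome mean against 0.727 with DMSO, and the authors' fold of IP over input was 4.51 against 8.84. The part of the input in the higher IP density was not tested. The start of Pinlyp lies within 500 bp of both peaks.

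No WT list had a peak at the Xrcc1 start. A peak missing from a list means that it was not called, and the tags of the WT libraries at that place were not analysed here. WT DMSO had 2 weak peaks further along Xrcc1, with densities of 1.60 (1.11 to 2.22) in an intron and 1.71 (1.13 to 2.46) near the 3' end, and KO DMSO had 1 past the 3' end with 1.84 (1.18 to 2.73). The intronic peak lay over bases of which 71.7% are repeats. WT talazoparib had no peak in the Xrcc1 window. The nearest peak left out, in WT DMSO, lay 5.93 kb from the gene with a normalized tag count of 2.99.

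Lig3 (chr11:82781108-82804274, plus strand) had 1 peak in each list, in the joined region chr11:82780798-82781971. In 3 lists the peak covered the start and part of the antisense gene Gm11423, and in KO talazoparib it lay just downstream of the start and outside Gm11423. Its normalized tag count was 6.55 with DMSO and 11.4 with talazoparib in WT cells, and 18.4 and 3.91 in KO cells. Its IP density was 2.51 (1.90 to 3.26), 2.80 (2.27 to 3.42), 4.29 (3.58 to 5.10) and 2.07 (1.35 to 3.03). KO talazoparib was thus the lowest of the 4 and KO DMSO the highest, a ratio of 0.482, with intervals that did not overlap. The KO talazoparib peak rested on 26.0 IP tags and 2.50 input tags over 500 bp, the most CpG-rich of all 49 peaks with 12.0 CG per 100 bp and 74.4% G and C. Of the regions with a peak in all 4 lists beside the 9 genes, Lig3 alone had a lower density in KO than in WT under talazoparib. The ratio was 0.739, and there the intervals overlapped.

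Aplf (chr6:87628424-87672193, minus strand) had the most peaks, 12 in 6 regions. Its start region, chr6:87671488-87672818, also covered the start of the non-coding gene E230015B07Rik. The IP density there was 3.10 (2.45 to 3.88) with DMSO and 2.01 (1.49 to 2.65) with talazoparib in WT cells, and 4.31 (3.63 to 5.08) and 6.08 (5.02 to 7.30) in KO cells. By density talazoparib was below DMSO in WT and above it in KO cells, and the intervals overlapped in both. The normalized tag count at the Aplf start was lower with talazoparib in both, at 5.97 against 8.79 in WT and 17.3 against 20.7 in KO cells. The fold over input went against the density, from 6.09 to 29.2 in WT and from 7.93 to 4.67 in KO cells. No direction with talazoparib thus held for the Aplf start across these measures. The WT talazoparib peak had 0.50 input tags, the lowest count found in any of the 4 lists. The Aplf 3' end held a further region, chr6:87628651-87629530, with 3.74 (2.87 to 4.80), 3.25 (2.42 to 4.27) and 5.21 (4.26 to 6.31) in WT DMSO, WT talazoparib and KO talazoparib. KO DMSO had no peak there, and this was the only region away from a start, other than the one at Pip4p1, that was listed in both genotypes.

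An intron of Aplf held a region listed in both KO conditions, chr6:87635813-87636739, with an IP density of 3.97 (3.06 to 5.05) in KO DMSO and 2.63 (1.81 to 3.70) in KO talazoparib. The remaining Aplf peaks were weak, with 1.36 and 1.48 in introns in WT talazoparib and 1.58 upstream in WT DMSO. Lig1 (chr7:13277283-13311433, plus strand) had its start peak in all 4 lists, in the joined region chr7:13277950-13279389 that also covers the start of the divergent gene Zswim9. Its normalized tag count was 11.3 with DMSO and 14.1 with talazoparib in WT cells, and 22.1 and 36.1 in KO cells. Its IP density was 3.35 (2.72 to 4.08), 2.84 (2.35 to 3.40), 5.11 (4.33 to 5.99) and 6.67 (5.86 to 7.57). Both KO values were above both WT values with no overlap of intervals, and within a genotype the talazoparib and DMSO intervals overlapped. KO talazoparib had 1 further Lig1 peak in the body, with 1.96 (1.46 to 2.58).

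In 6 regions the set had 1 peak in each list, and they allow the treatments to be set side by side. IP density in KO exceeded that in WT in 5 of them under DMSO and in 5 under talazoparib. Of all 5335 such regions of the genome 89.3% and 92.1% did. The exceptions by density were Fen1 under DMSO and Lig3 under talazoparib. By normalized tag count Fen1 under DMSO was higher in KO, at 13.2 against 8.22, and Lig3 under talazoparib stayed lower. By fold over input Lig3 was the exception under DMSO, at 5.09 in KO against 5.55 in WT. Under talazoparib Aplf (4.67 against 29.2) and Fen1 (5.61 against 7.09) then had the lower fold in KO, and Lig3 did not. The median KO over WT ratio of IP density was 1.38 under DMSO and 1.96 under talazoparib for the 6 regions, and 1.30 and 1.57 for all 5335. At 4 regions (Lig1, Aplf, Fen1 and the Pip4p1 region beside Apex1) the IP density with talazoparib was below that with DMSO in WT and above it in KO cells, and so it was at 41.5% of all such regions. The reverse was seen at Lig3 and in 10.3% of all, and both genotypes were higher at the Apex1 start and in 34.2% of all. The median talazoparib over DMSO ratio was 0.889 in WT and 1.26 in KO cells for the 6 regions, against 0.960 and 1.17 for all. Fen1 was the single region whose density intervals were apart in both genotypes. These directions depended on the measure. By normalized tag count, only Fen1 was lower with talazoparib in WT and higher in KO cells, Lig3 and the Pip4p1 region were the reverse, Lig1 was higher in both, and Aplf and the Apex1 start were lower in both. Of all 5335 regions, 34.0%, 18.2%, 14.9% and 31.9% moved in these ways by tag count, in the same order. The input density changed in the same directions as the IP density at 5 of the 6 regions, all but the one at Pip4p1, and its part in these differences was not tested.

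The start peaks of the 9 genes were set beside those of all protein-coding genes. The median IP density of the members' start peaks was 3.07, 2.80, 4.20 and 6.08 in the 4 lists, and that of all start peaks 3.04, 3.16, 3.75 and 4.85. Over all lists the members' start peaks had a median width of 904 bp and 6.12 CG per 100 bp, and all start peaks 934 bp and 6.56. The 21 peaks away from the own start had medians of 500 bp, 1.88 CG per 100 bp and an IP density of 2.40, against 3.48 at starts. Repeats made up a median of 16.0% of their bases and 4.24% at starts. Of the members' 21 peaks away from the own start, 12 were exactly 500 bp wide, as were 4 of their 28 start peaks. Fewer than 3 input tags lay under 7 of the 21 and 5 of the 28.

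**Figure D4:**
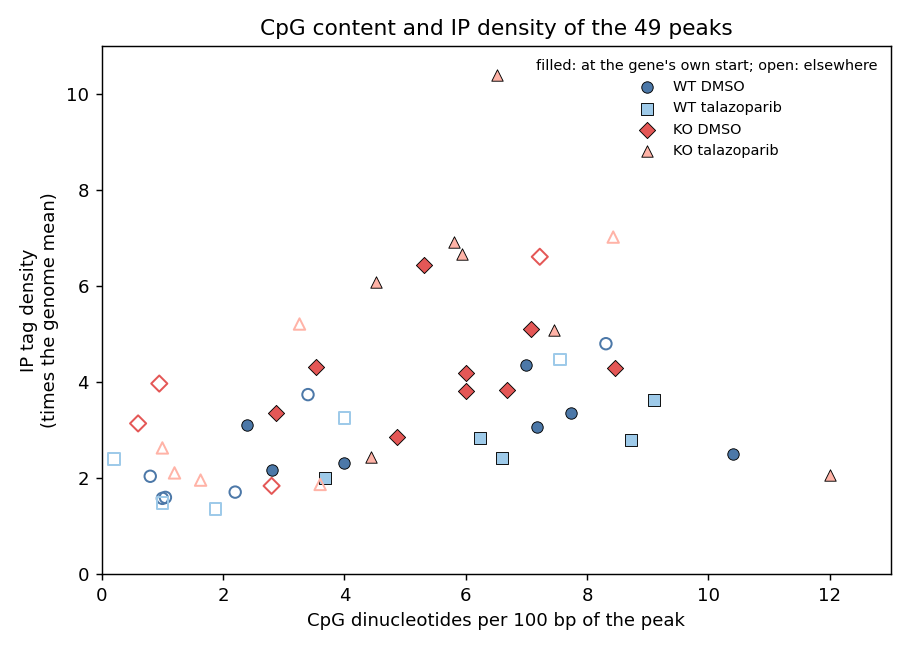
CpG dinucleotides per 100 bp of the peak (horizontal axis) against IP tag density (vertical axis, times the genome mean) for the 49 peaks, with symbols for the 4 lists. Filled symbols are peaks at the gene's own start and open symbols peaks elsewhere; most open symbols lie at the lower left, and the 4 open symbols above 7 CG per 100 bp are the peaks at Pip4p1 beside Apex1.

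In the RefSeq promoter table, 250 bases before to 50 after each start, 7 of the 9 genes were found, with 11 windows. Polb and Apex2 were not matched. The Apex1 window held 31 CG dinucleotides, more than 89.4% of the 32851 windows of the table. The Lig1 windows held 23 and 21 where its start peaks lay and 5 where no peak lay. Those of Aptx, Lig3, Fen1 and Aplf held 10 to 20. The median of the table was 7. The Xrcc1 window, also 7, was itself overlapped by both KO peaks and lay upstream of the printed Xrcc1 stretch. On both strands, the GC box GGGCGG was in 5 of the 11 windows (35.7% of all windows), CCAAT in 4 (37.4%), TATAAA in 1 (13.6%), the E-box CACGTG in 4 (7.15%), the ETS motif CCGGAAG in 1 (8.86%) and the NRF1 motif in none (0.971%). The windows with an E-box were those of Apex1, Lig3, a Fen1 start and a Lig1 start, and no peak overlapped that Lig1 window. The E-box letters occur in the printed Apex1 and Lig3 stretches, around 1 of the CG dinucleotides in each, and there overlap no other motif of the search. These are matches of letters and no measure of binding.

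Other genes of the same repair steps were counted from 4 lists chosen by function. Among all protein-coding genes, 60.9%, 48.8%, 66.8% and 58.9% had a peak in the 4 peak lists. The counts that follow were not tested against these shares. Of 7 genes for strand-break sensing and end cleaning, 5, 5, 7 and 7 had a peak. Parp1, the main sensor of strand breaks, had 2, 1, 2 and 2. Hmgb1, a chromatin protein, had 6, 4, 5 and 7, and Parg, which degrades poly(ADP-ribose), 2, 1, 1 and 1. Of 16 genes for replicative synthesis and long-patch repair, 13, 11, 15 and 14 had a peak. Pold1, the catalytic subunit of polymerase delta, had the most, with 5, 2, 7 and 4, followed by Rpa1 with 3, 1, 2 and 3.

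Pcna, the sliding clamp that holds FEN1 and DNA ligase I, and Rfc1 of its loader each had 3, 1, 2 and 2 peaks. Of 10 genes of double-strand end joining, 9, 8, 9 and 9 had a peak, with 1, 3, 3 and 3 at Nhej1, 3, 3, 1 and 2 at Prkdc, 1, 3, 3 and 2 at Xrcc5 and 1, 2, 2 and 3 at Xrcc6. Of 11 base excision glycosylases, which act one step before APEX1, 10, 6, 10 and 8 had a peak. Among them Ung had 4, 2, 5 and 2, Smug1 4, 0, 4 and 2, Mbd4 3, 2, 2 and 1 and Mutyh 2, 1, 4 and 1. In each of the 4 gene lists, no other condition had fewer genes with a peak than WT talazoparib, which had the fewest peaks in all. Single genes did not all follow this, and Nhej1, Xrcc5 and Xrcc6 had their fewest peaks in WT DMSO.

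The protein-coding genes whose summed normalized tag counts over the 4 lists were nearest to the median of the 9 genes were Ube2q2, St7l and Men1. Likeness was the Euclidean distance of log2(sum + 1) over 4 lists, and was 0.251, 0.272 and 0.304. The sums were 6.44, 6.80, 22.7 and 27.6 for Ube2q2, and the medians of the 9 genes were 7.24, 5.79, 22.1 and 27.3. The 9 genes themselves spread widely around those medians: in KO talazoparib the sum was 52.9 at Apex1 and 0 at Polb and Aptx.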

How the data were processed

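SSB-seq libraries of 4 conditions (3 IP and 1 input each) were examined through the 4 peak lists the authors deposited. Per the submitters' processing notes, HOMER 4.11, Bowtie2 2.3.4.2, R 3.6, Picard 2.9.2 and build mm10 were used, and roles and settings are not given in the sources used here. Per the file headers, columns are named as by findPeaks of HOMER. Each list has 1 value per peak, so the authors pooled replicates, which could not be compared.

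The deposited normalized tag count is an IP signal per 10000000 IP tags. The deposited input tags are a signal in steps of 0.500. The deposited IP tags scaled to the input total are of another unit (other). The deposited fold, a ratio of the scaled IP tags to input tags, is at least 4.00 in every list. The deposited p-value per peak and the authors' score were used only within a list. Coordinates of peaks are printed as deposited, and whether their starts count from 0 or 1 is not stated.

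Computed here, with Python 3.11.15, pandas 2.3.3, numpy 2.4.6 and scipy 1.17.1: IP totals from the step of normalized tag counts under 6, where 100% of values fell on the step within 0.00510; IP density over 2648 Mb; exact Poisson 95% intervals; and overlaps with GENCODE M21 genes. The calculations were tested on simulated data. All 9 genes are named, with neighbours under a shared peak, up to 4 genes with the most peaks per functional list, and the 3 nearest genes by summed tag counts. One gene that this rule names is not reported here. Genes and lists were chosen with earlier results of these data known. The 500 bp start definition, its shares and the printed sequences were chosen after the peaks were seen. Alternatives covered the gene window, overlap, peak threshold, list length, merging and, chosen after seeing the data, the measure of a peak.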

Additional observations from a re-analysis of the deposited data

Results flagged for a closer look

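At 5 of the 6 regions with a peak in each list, the IP tag density moved in opposite directions with talazoparib in WT and KO cells. Talazoparib minus DMSO, in multiples of the genome mean, was -1.95 in WT and 3.11 in KO at the Fen1 start, -1.09 and 1.77 at the Aplf start, and -0.514 and 1.56 at the Lig1 start. The Pip4p1 region beside Apex1 had -0.328 and 0.410. The Lig3 start went the other way, with 0.287 in WT and -2.22 in KO cells. There is 1 pooled value per condition, so the difference between genotypes was not tested. Fen1 had density intervals apart in both genotypes and Lig3 in KO cells. For the other differences the intervals overlapped, which does not show that they lie within counting error. Density intervals also depend on the peak borders, which differed between the lists. The pattern depended on the measure: by normalized tag count 3 of the 6 regions (Fen1, Lig3 and the one at Pip4p1, the last with its directions turned) moved in opposite directions, and by the authors' fold over input 2 did (Fen1 and Aplf, both with their directions turned). Such opposite movement was common in the genome. Of all 5335 regions with 1 peak in each list it was seen at 51.8% by IP density. By normalized tag count the share was 52.2%, and by fold over input 51.1%.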

How the results depend on the processing

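In all, 93 recomputed counts or shares stayed within 1.5 times the reported value and 23 did not; the first include all those for the gene body alone, for flanks of 2 and 10 kb, for stricter overlaps, for an IP density of at least 2 and for equal numbers of best-scoring peaks. With a fold over input of at least 6, 2 genes kept a peak in WT DMSO, 3 in WT talazoparib and 3 in KO talazoparib, with 4, 5 and 4 peaks; 13 regions were left and 0 were in all 4 lists, and the share of all genes fell to 15.3%, 17.4% and 14.0%. Start peaks were then left at 1 and 3 genes in the WT lists and at 7 and 3 in the KO lists, DMSO first. With at least 3 input tags, WT talazoparib had 5 peaks and 3 regions were in all lists. The share of genes with a peak was 60.9%, 48.8%, 66.8% and 58.9% over protein-coding genes and 61.0%, 48.6%, 67.0% and 59.0% over those of the 9 genes' length. As an alternative chosen after seeing the data, opposite directions with talazoparib in WT and KO cells were counted by normalized tag count, which gave 3 regions, and by fold over input, which gave 2, against 5 by IP density. The shares over the genome for each measure are given above. Equal list lengths kept counts within 1.5 times but left little or none of the lower share with talazoparib, as described above. Leaving out replicates in turn was not run, since the lists hold no value per library. No paired analysis was possible because each list pools the replicates. Depth limits the weak peaks most, which rest on as few as 23.5 IP tags and 0.50 input tags.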

Other observations

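Starts close to that of another coding gene were frequent in the set: 4 of the 9 start regions (those of Xrcc1, Lig1, Apex1 and Fen1, with 14 of the 28 start peaks) had a coding start of another gene within 500 bp. Strand was not used in this count. Of all 13086 regions at coding starts, 9.26% held coding starts of several genes. This count was chosen after the peaks were seen, and no test was made.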
